A study of Mus musculus with 6 samples.

Results

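The 6 genes described here are Igf2bp1, Igf2bp2, Igf2bp3, Lin28b, Hmga1 and Hmga2, which encode RNA-binding and chromatin proteins of the fetal growth programme. They were taken by gene symbol, as 6 of the 32285 genes counted, and they had been picked because their transcripts were lower at postnatal day 21 than at day 1 in earlier results from the same libraries. The day 1 and day 21 levels are therefore given as a description with no test, while hyperoxia, sex and lineage were not used in the choice and were tested.

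Single cells of whole lung from wild-type C57BL/6N mice were profiled with 10x Genomics 3′ chemistry after sorting of live cells. There were 6 libraries, each a pool of 3 mice of 1 sex: day 1 room air females and males, day 21 room air females and males, and day 21 hyperoxia females and males. Hyperoxia was 95% oxygen from day 1 to day 5 followed by room air until day 21, and the other mice breathed room air (21% oxygen) throughout. Each combination of age, exposure and sex was a single library, so intervals on single values cover counting error only, and the p-values below measure the spread between these libraries. The mice of a library were pooled, and no value can be assigned to 1 animal.

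The 3 IGF2BP proteins bind messenger RNAs, including those of Igf2, Actb and Myc, and protect or localise them in the cytoplasm. LIN28B blocks the maturation of let-7 microRNAs, and let-7 in turn represses Lin28b, Igf2bp and Hmga transcripts, a loop known for separating fetal from adult states of blood stem cells and other tissues. HMGA1 and HMGA2 are small proteins that bind the minor groove of AT-rich DNA and bend it, and HMGA2 is known in the embryonic lung as a protein of distal progenitors.

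Because the let-7 family is the known shared regulator of these transcripts, its members and their sites are shown first. In RefSeq's mature microRNAs for GRCm38.p6, 10 mature let-7 and miR-98 names share 1 seed, bases 2 to 8, given here in capitals for 3 of them, and let-7j carries a seed that ends in another base.

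let-7a-5p: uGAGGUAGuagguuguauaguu

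let-7g-5p: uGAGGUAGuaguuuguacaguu

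miR-98-5p: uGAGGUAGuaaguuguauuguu

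The complement of that seed, CTACCTC, was searched on the transcript strand of the longest annotated 3′ untranslated region of each gene, exonic in every case shown (GENCODE M21, GRCm38). All 6 members held it. One 23-base window is shown for each member, 5′ to 3′ along the transcript, with the seed complement in capitals. The base after the capitals is an a in 5 of the 6 windows, the form that usually gives the stronger site, and a t in the Hmga1 window. Where a gene had several matches, one followed by an a is shown, and over all 15 matches 7 were followed by an a.

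Igf2bp1, chr11:95961778-95961800, minus strand: gctgtgcgaagtaaaCTACCTCa

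Igf2bp2, chr16:22059473-22059495, minus strand: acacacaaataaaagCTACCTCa

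Igf2bp3, chr6:49086787-49086809, minus strand: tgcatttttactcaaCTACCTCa

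Lin28b, chr10:45381022-45381044, minus strand: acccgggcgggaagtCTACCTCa

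Hmga1, chr17:27563277-27563299, plus strand: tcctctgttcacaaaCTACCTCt

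Hmga2, chr10:120364224-120364246, minus strand: gccgacattcaatttCTACCTCa

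Igf2bp1, Lin28b and Hmga2 carried 4 matches each, and Igf2bp2, Igf2bp3 and Hmga1 carried 1 each. Of 21024 3′ untranslated regions with the same kind of annotation, 9.02% held at least 1 match. Longer regions hold more of any 7-base motif, and the members' regions are 6337 bases in Igf2bp1, 1784 in Igf2bp2, 2119 in Igf2bp3, 4445 in Lin28b, 1183 in Hmga1 and 3014 in Hmga2. Among regions within 0.8 to 1.25 times the length of each member's, 34.2%, 12.1%, 13.3%, 24.3%, 8.21% and 16.0% held at least 1, in that order. Regions with as many matches as the member made up 0.166% for Igf2bp1, 0.221% for Lin28b and 0.0821% for Hmga2. The members are textbook let-7 targets, so their sites are a description of known targets, and mature let-7 itself was not measured in these libraries.

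The genes lie at these GRCm38 positions: Igf2bp1 (ENSMUSG00000013415) at chr11:95957163-96005940, Igf2bp2 (ENSMUSG00000033581) at chr16:22059009-22163299, Igf2bp3 (ENSMUSG00000029814) at chr6:49085223-49214957, Lin28b (ENSMUSG00000063804) at chr10:45376620-45486395, Hmga1 (ENSMUSG00000046711) at chr17:27556497-27563674 and Hmga2 (ENSMUSG00000056758) at chr10:120361275-120476469. All are on the minus strand except Hmga1. The last 1529 bases of Igf2bp3 overlap the opposite-strand gene Malsu1, and how the counting used strand is not given in the sources used here. Hmga1b, a near-identical copy of Hmga1, was counted separately at 0.105 to 0.296 CPM, so how reads were shared between the 2 genes is uncertain. Antisense genes also overlap Igf2bp1 (Gm29202), Hmga1 (Gm49774, and the opposite-strand protein-coding gene AI413582) and Hmga2 (1700006J14Rik and 9230105E05Rik), and their reads cannot be told apart from the members' without strand.

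Levels are unique molecular identifiers (UMIs, each a captured transcript molecule) given as CPM, the depth-scaled unit in common use (the gene's UMIs over all UMIs of the same cells), and cell classes are the authors' deposited classes. Of 76024 barcodes, 55882 carried a class, libraries held 122173482 to 163649658 UMIs, and the median cell had 8329 to 9703 UMIs by library. Pairs of libraries shared 9 to 37 cell barcodes. The female hyperoxia library stood apart in Xist, the non-coding RNA of the inactive X chromosome, which was found in 56.2% of its cells against 77.2% and 84.4% in the other female libraries and at most 0.195% in the males. The fitted hyperoxia changes named below are given with and without it where both fits held the pair. The matrices were written by different Cell Ranger versions at day 1 and day 21, and software version and age cannot be told apart. The later version counts intronic reads by default, and whether they were counted here is not given in the sources used here. In the room air libraries the median log2 change with age over the genes tested was -0.64 for genes with no introns and 0.92 for genes in the top quartile of intron length, so the members' intron lengths are given beside the age values. In bulk values over all cells of a library, fewer cells of a type and less RNA per cell cannot be told apart.

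Over the 10 classes with at least 50 cells in each of the 4 room air libraries, the members were lower at day 21 in most of the classes where they could be read. Of the 60 pairs of member and class, 48 had at least 10 UMIs over the 4 libraries, and in 40 of these the CPM was lower at day 21 in both sexes. Across all genes 34.4% of 135341 such pairs were lower in both sexes, a share that stands beside the count and supports nothing, since the members were chosen on this contrast. Hmga1 was lower in 10 of 10 classes, Igf2bp2 in 9 of 10, Igf2bp1 in 7 of 7, Hmga2 in 6 of 9, Igf2bp3 in 6 of 10 and Lin28b in 2 of 2. The single pair that was higher at day 21 in both sexes was Igf2bp3 in neutrophils. The other 12 of the 60 pairs were under the minimum, and 36 of the 60 passed the expression filter of the fit across all genes, in which 54.3% of 109029 pairs of gene and class were called in either direction.

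**Figure D1:**
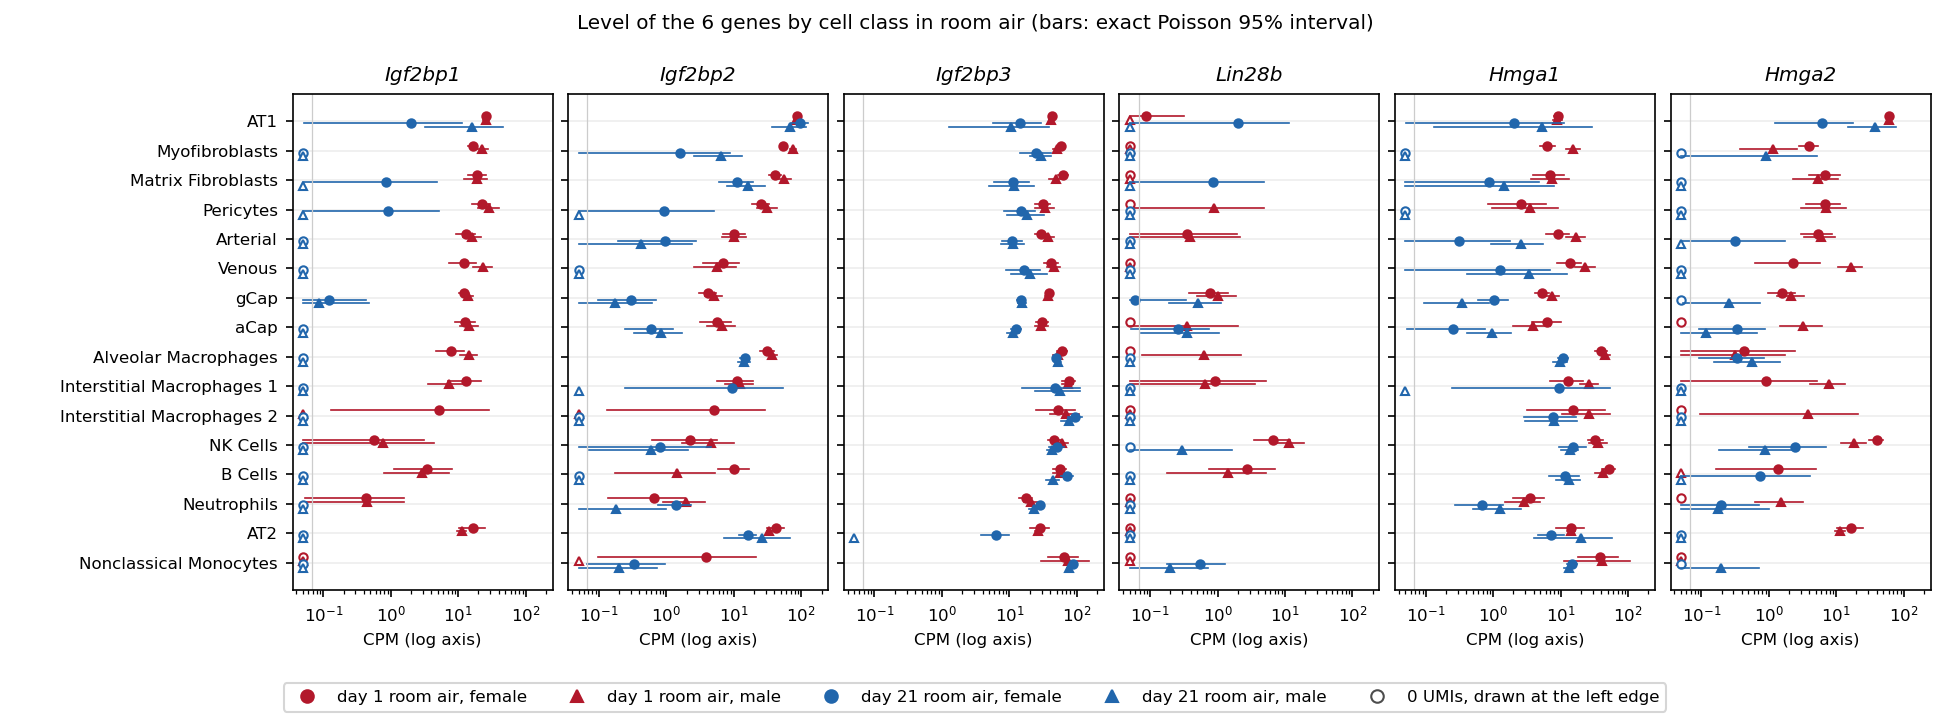
Level of each of the 6 genes (CPM, log axis) by cell class in the 4 room air libraries, with bars for the exact Poisson 95% interval and open symbols at the left edge for 0 UMIs. Day 21 points of Igf2bp1 lie at or near the left edge in most classes, Igf2bp2 in AT1 cells reads 68.7 to 95.0 at both ages, and Igf2bp3 in NK and B cells overlaps between the ages.

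Igf2bp1, the member of the IGF2BP family best known as an oncofetal protein, had next to no UMIs left at day 21. Over all cells it stood at 12 CPM in day 1 females and 11.8 in day 1 males, at 0.0638 and 0.0544 in day 21 room air and at 0.0347 and 0.0819 in day 21 hyperoxia. The 2729 UMIs of the day 1 libraries compared with 10 in day 21 room air, a 200-fold lower level (exact Poisson 95% interval 108 to 417). Every day 1 library was above every day 21 library. The classes were not in the same shares at the 2 ages. Over 16 classes shared by the room air libraries, the day 21 class levels at day 1 shares gave 0.735 and 4.11 CPM, against 16.3 and 16.1 at day 1 and 0.0682 and 0.0732 measured at day 21. The reweighted day 21 values rest on few AT1 cells, which held 1 UMI in 32 female cells and 3 UMIs in 14 male cells. The day 1 class levels at day 21 shares gave 8.53 and 9.32.

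At day 1 Igf2bp1 was highest in pericytes (22.3 CPM in females, 29.0 in males) and in alveolar type 1 (AT1) cells, the flat gas-exchange cells of the epithelium (25.6 and 25.8). It was found in 22.9% and 20.7% of AT1 cells. Myofibroblasts followed with 16.5 and 22.8 CPM and matrix fibroblasts with 19.3 and 18.7. General capillary cells (gCap) had 12 and 13.8, and alveolar macrophages had 7.85 and 14.3. Neutrophils, at 0.436 and 0.440 CPM from 2 UMIs each, give the level found in a class with next to none of the transcript.

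By day 21 in room air the myofibroblasts held 0 Igf2bp1 UMIs where the day 1 libraries held 260, which against a floor of 3 UMIs over the pair of libraries is at least 10.6-fold lower. Alveolar capillary cells (aCap, or aerocytes) went from 77 UMIs to 0, at least 91.1-fold lower, and alveolar macrophages from 64 to 0, at least 72.8-fold lower. gCap cells held 0.120 and 0.0855 CPM, 121-fold below day 1 (40.8 to 588), with a fitted log2 change of -6.90 (SE 0.410). Igf2bp1 has 39096 intron bases, in the third quartile of genes by intron length, whose median change in gCap cells was 0.20. The 2 changes are of opposite sign, which supports nothing, since Igf2bp1 was chosen for a lower level at day 21. AT1 cells at day 21 held 1 and 3 UMIs, or 2.02 and 15.9 CPM, 4.40-fold below day 1 (1.71 to 16.2), from few cells.

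Igf2bp2, the paralog known in adults for a role in metabolism, had CPM in AT1 cells that did not differ between the ages beyond counting error. It was lower at day 21 in both sexes in 9 of the 10 fitted classes. The exception was neutrophils, at 0.654 and 1.98 CPM at day 1 and 1.37 and 0.180 at day 21. Over all cells it stood at 30.0 and 29.0 CPM at day 1, at 3.49 and 2.27 in day 21 room air and at 2.34 and 2.73 in day 21 hyperoxia, females first. That is 9.99-fold lower in room air (9.11 to 11.0). AT1 cells, however, had 85.1 and 83.6 CPM at day 1 and 95.0 and 68.7 at day 21, a ratio of day 1 to day 21 of 0.962 (0.746 to 1.26). The male and female libraries of the 2 ages overlap in AT1 cells, and the hyperoxia libraries read 143 and 106. Genes in the intron quartile of Igf2bp2 had a median log2 change of 1.04 in AT1 cells, with 16.9% of them lower. A like CPM at both ages therefore does not show an unchanged transcript.

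AT1 cells were many at day 1 (2054 and 1765 cells) and few at day 21 (32 and 14 in room air, 40 and 57 in hyperoxia). Their share of the UMIs of the 16 classes shared by all 4 room air libraries was 32.6% and 25.8% at day 1 and 0.675% and 0.346% at day 21. With the day 1 class shares applied to the day 21 class levels, Igf2bp2 would stand at 32.7 and 24.6 CPM at day 21, against 4.34 and 2.75 measured over those classes, a value that rests on 32 and 14 AT1 cells. Day 1 stood at 41.1 and 39.1 over the same classes, and the day 1 class levels at day 21 shares gave 12.1 and 10.9. The AT1 marker Ager, which encodes the receptor for advanced glycation end products, stood at 7516 and 7763 CPM at day 1 and 5619 and 13719 at day 21. The mesothelial markers Upk3b and Wt1 were near 0 in AT1 cells, whereas Msln, listed here with them, went from 963 and 858 CPM at day 1 to 2.02 and 0 at day 21.

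Outside AT1 cells Igf2bp2 was highest at day 1 in myofibroblasts (53.1 and 76.1 CPM) and matrix fibroblasts (41.2 and 56.2). Both classes of alveolar type 2 cells, the surfactant-secreting epithelium, had 33.8 to 41.8. In day 21 room air the myofibroblasts read 1.57 and 6.45 CPM, 13-fold lower (6.56 to 30.2), and gCap cells 0.301 and 0.171, 18.3-fold lower (8.57 to 46.7). Matrix fibroblasts kept 11.2 and 16.0 CPM, 3.62-fold below day 1. Alveolar macrophages went from 31.4 and 37.0 CPM to 14.6 and 14.4, which is 2.39-fold lower (1.98 to 2.88). The day 1 and day 21 libraries did not overlap in any of these 4 classes. Igf2bp2 has 96889 intron bases, in the top quartile, whose median change was upward.

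Igf2bp3, the third paralog, had like CPM at both ages in immune cells and lower CPM at day 21 in the structural lineages. Over all cells it moved little in room air, from 46.7 and 41.5 CPM at day 1 to 39.7 and 41.7 at day 21, with 32.4 and 27.3 in hyperoxia. Over the 16 shared classes, day 21 class levels at day 1 shares gave 20.7 and 16.5 CPM against 43.2 and 38.8 at day 1. Those values rest on few day 21 epithelial cells, with 2 Igf2bp3 UMIs in male AT1 cells and 0 in male alveolar type 2 cells. Immune cells held 54.9 and 54.2 CPM at day 1, 57.7 and 56.7 in day 21 room air and 51.7 and 47.7 in hyperoxia, a ratio of day 1 to day 21 room air of 0.953. Genes of its intron quartile had a median log2 change of 1.19 in immune cells, with 16.5% of them lower, so a flat CPM here does not show an unchanged transcript. Mesenchymal cells went from 55.6 and 48.0 CPM to 15.6 and 21.5, 2.90-fold lower (2.36 to 3.62). Endothelial cells went from 36.3 and 37.5 to 13.9 and 13.9, 2.65-fold lower (2.43 to 2.90), and epithelial cells from 38.5 and 31.6 to 7.43 and 5.86, 4.69-fold lower (3.24 to 7.07). The ages did not overlap in those 3 lineages.

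**Figure D2:**
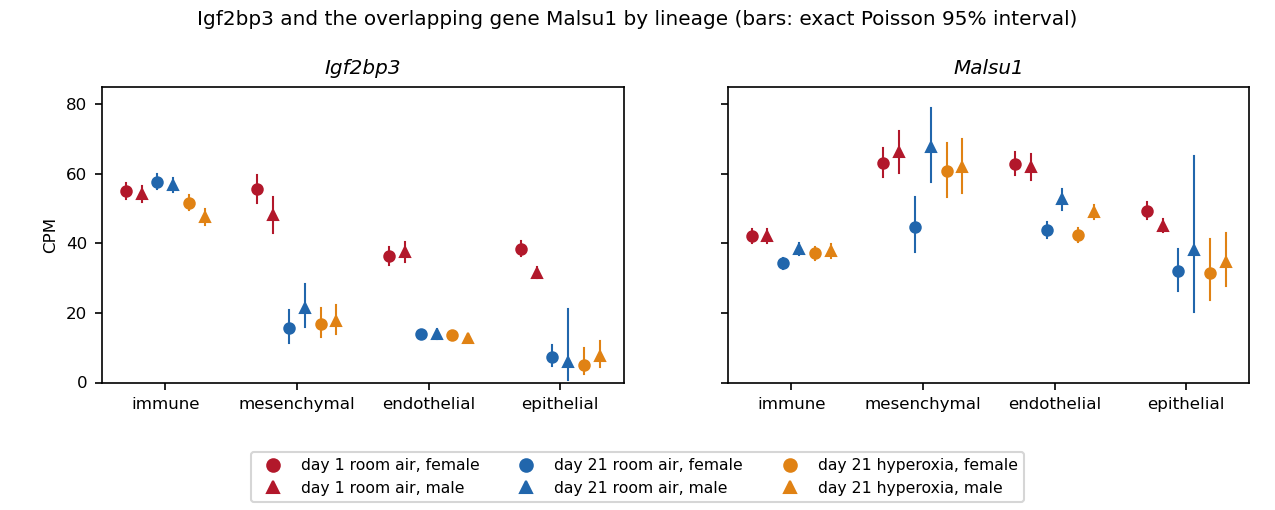
Igf2bp3 and the overlapping gene Malsu1 (CPM, axis from 0) by lineage in the 6 libraries, with bars for exact Poisson 95% intervals. Igf2bp3 in immune cells reads 47.7 to 57.7 over the 6 libraries, and its endothelial, epithelial and mesenchymal values at day 21 lie below both day 1 values of the lineage.

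Within immune cells at day 1 Igf2bp3 was highest in interstitial macrophages 1 (75.8 and 73.3 CPM) and in the 2 neonatal classes of classical monocytes (65.4 to 74.3). At day 21 in room air nonclassical monocytes had 86.6 and 77.1 and classical monocytes 77.8 and 75.6. Neutrophils were lowest of the larger immune classes at 17.7 and 20.7 CPM at day 1 and read 28.8 and 23.4 at day 21, with 16.6 and 20.9 in hyperoxia. The fitted change in neutrophils was 0.33 on the log2 scale (SE 0.181). In gCap cells it was -1.45 (SE 0.152), and in alveolar macrophages -0.46 (SE 0.159), which turned to 0.17 when libraries were scaled on genes without introns. Igf2bp3 has 121576 intron bases, in the top quartile. Malsu1, the mitochondrial ribosome assembly gene that overlaps its 3′ end, read 42.1 and 42.1 CPM in immune cells at day 1 and 34.2 and 38.3 at day 21, and in endothelial cells 62.8 and 61.9 against 43.7 and 52.7.

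Lin28b, the let-7 antagonist, was nearly absent even from newborn lung. All cells together gave 43 UMIs in each day 1 library, 14 and 15 in day 21 room air and 17 and 16 in hyperoxia, 2.17-fold lower in room air (1.41 to 3.43). The class with most of it was the natural killer (NK) class at day 1, with 6.70 CPM in females (12 UMIs in 9 cells) and 11.6 in males (15 UMIs in 12 cells). At day 21 in room air that class held 0 and 1 UMI, 40.6-fold lower (6.70 to 1663). B cells at day 1 held 4 and 2 UMIs, and gCap cells 10 and 10. Lin28b has 100711 intron bases, in the top quartile.

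Hmga1 was highest, and also lowest, in immune classes. Over all cells it stood at 14.4 and 15.9 CPM at day 1, at 6.04 and 6.35 in day 21 room air and at 4.61 and 3.63 in hyperoxia, 2.46-fold lower in room air (2.29 to 2.64). Over the 16 shared classes, day 21 class levels at day 1 shares gave 2.33 and 6.80 CPM against 10.3 and 13.6 at day 1. Those values rest on few day 21 epithelial cells, with 1 Hmga1 UMI in AT1 cells of each sex and 3 in 7 male alveolar type 2 cells. B cells led at day 1 with 51.9 and 42.8 CPM, followed by alveolar macrophages with 40.1 and 45.7 and NK cells with 32.9 and 36.4. The lowest levels were in Ngp-positive neutrophils (2.72 and 1.43), pericytes (2.60 and 3.51) and neutrophils (3.49 and 2.86). At day 21 in room air B cells read 11.7 and 13.2, alveolar macrophages 10.8 and 9.90 and NK cells 15.5 and 13.8, all below both day 1 libraries.

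In endothelial and mesenchymal cells Hmga1 was near 0 at day 21. Endothelial cells went from 6.94 and 9.83 CPM to 0.678 and 0.900, 10.7-fold lower (7.78 to 15.1), and myofibroblasts from 130 UMIs to 0, at least 5.30-fold lower. Immune cells as a whole were 2.42-fold lower and epithelial cells 1.80-fold. Fitted log2 changes were -3.21 in gCap cells (SE 0.373), -2.40 in alveolar macrophages and -2.07 in B cells. Hmga1 has 5053 intron bases, in the lowest quartile of genes with introns, whose median change over the 10 classes was -0.56, of the same sign as its own changes.

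Hmga2 was highest in AT1 cells at day 1, and the intervals of that class and the next did not overlap. For the other members each of the 20 day 1 classes overlapped its next neighbour in that order in at least one pairing of their libraries' intervals, taken within a sex or across the sexes. Over all cells it stood at 15.7 and 14.3 CPM at day 1, at 0.362 and 0.435 in day 21 room air and at 0.324 and 0.889 in hyperoxia, 38.0-fold lower in room air (29.8 to 49.3). AT1 cells held 59.8 and 60.0 CPM at day 1, in 40.1% and 36.5% of cells, and alveolar type 2 classes held 11.4 to 16.6. Ager stood at 559 to 1216 CPM in those type 2 classes, which at the AT1 ratio goes with 4.32 to 9.67 CPM of Hmga2. At day 21 AT1 cells read 6.07 and 37.0 from 3 and 7 UMIs in room air, and 8.13 and 7.33 in hyperoxia. The male room air value rests on 14 cells. With day 1 class shares applied, day 21 Hmga2 would stand at 2.10 and 9.72 CPM against 0.246 and 0.403 measured over the 16 shared classes, and day 1 levels at day 21 shares gave 2.69 and 3.22 CPM.

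Outside the epithelium and the NK class, whose cells are described next, Hmga2 was lower, and in some classes it came from few cells. Pericytes had 6.75 and 7.03 CPM at day 1, matrix fibroblasts 6.87 and 5.35, and gCap cells 1.57 and 2.14, and the pericytes and matrix fibroblasts held 0 UMIs in day 21 room air. The AT1 marker Ager was found outside AT1 cells at day 1, at 674 and 1391 CPM in pericytes, 95.3 and 189 in matrix fibroblasts and 117 and 140 in gCap cells. At the AT1 ratio of Hmga2 to Ager, that much Ager goes with 5.36 and 10.8 CPM of Hmga2 in pericytes, against 6.75 and 7.03 seen. It goes with 0.758 and 1.46 in matrix fibroblasts and with 0.931 and 1.08 in gCap cells. How much of the pericyte Hmga2 came with AT1 transcripts was not tested, and that level is left uninterpreted. For Igf2bp1 the same ratio gives 2.30 and 4.63 CPM in pericytes and 0.140 and 0.196 in myofibroblasts, and for Igf2bp2 it gives 0.463 and 0.633 in myofibroblasts, all below the levels seen. Hmga2 in the endothelial lineage was 19.5-fold lower at day 21. In day 1 male venous cells 26 UMIs came from 6 cells, with 42.3% of them in 1 cell, and in day 1 female myofibroblasts 1 cell held 55.3%. Hmga2 has 108423 intron bases, in the top quartile.

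The NK class was the second class by Hmga2 at day 1, at 39.6 and 18.6 CPM, and those UMIs came from 14 of 137 cells in females and 8 of 97 in males. These cells carried other genes than the rest of the class, named here after their values were seen. Kit, the stem cell factor receptor, was found in 11 of 14 and 8 of 8 of them against 12 of 123 and 17 of 89 of the others, and Hoxa9, a homeobox gene of blood progenitors, in 9 of 14 and 6 of 8 against 0 of 123 and 1 of 89. Gzma, the granzyme of cytotoxic lymphocytes, was found in 1 of 14 and 0 of 8 against 87 of 123 and 64 of 89. Nkg7, a cytotoxic lymphocyte gene, was found in 7 of 14 and 5 of 8, against 109 of 123 and 74 of 89. The T cell receptor gene Trbc1 was found in 4 of 14 and 0 of 8, against 96 of 123 and 79 of 89. T cell receptor transcripts thus stood beside the NK genes in this class. The median depth of the Hmga2-positive cells was 21652 and 21817 UMIs against 10691 and 11640.

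Scrublet, which scores barcodes for resemblance to 2 merged cells, called 12 of these 14 cells and 7 of these 8 doublets, against 17 of 123 and 14 of 89 of the rest. Without called doublets, day 1 Hmga2 in the NK class was 2.35 and 2.27 CPM, from 3 and 2 UMIs. Most of the day 1 level thus came from called doublets. The day 21 values of 2.45 and 0.880 CPM, from 3 UMIs each, keep called doublets. The 2 ages are therefore not compared on like cells here. Ager read 0 and 11.5 CPM in the Hmga2-positive NK cells against 7516 and 7763 in AT1 cells. Lin28b in the NK class moved little when called doublets were left out, to 7.04 and 12.5 CPM, and Lin28b and Hmga2 were found together in only 2 and 1 cells. The part of doublets in the Hmga2 value was not tested further.

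**Figure D3:**
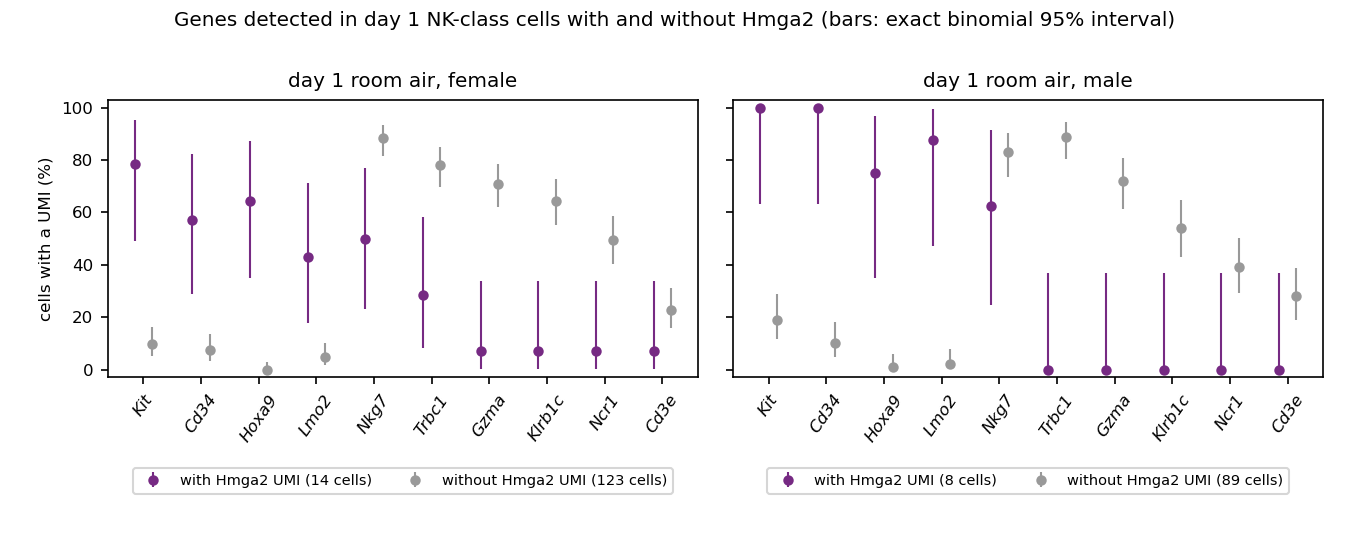
Share of day 1 NK-class cells (percent) with at least 1 UMI of each gene, in Hmga2-positive cells and in the other cells, for the female and male libraries, with bars for exact binomial 95% intervals. Kit, Cd34 and Hoxa9 are found in a larger share of the Hmga2-positive cells than of the others, and the cytotoxic gene Gzma in a smaller share.

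The lineages of the newborn lung were compared within the day 1 libraries with mesenchymal cells as the reference, in 1 edgeR quasi-likelihood fit with the library as a term, 18 pairs of member and contrast in all. The fit called 10 of 18 at an adjusted p under 0.05, against 56.4% of all pairs of gene and contrast (46.5% against endothelial, 54.2% against epithelial and 68.5% against immune cells). Igf2bp1 was higher in mesenchymal cells (17.8 and 22.9 CPM) than in immune cells (2.55 and 2.52), a log2 difference of 2.42 (SE 0.179, adjusted p 0.000116 in edgeR). It did not pass the threshold against endothelial cells (12.3 and 15.6 CPM, log2 difference 0.42, edgeR adjusted p 0.0900) or epithelial cells (22.1 and 16.7 CPM, -0.45, edgeR adjusted p 0.0592). The epithelial contrast passed in 2 of 5 alternatives (adjusted p 0.0166 to 0.106 over the 5).

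The fit called Igf2bp2 in all 3 contrasts. Mesenchymal cells (47.3 and 64.7 CPM) were above endothelial cells (5.63 and 6.63) by 3.06 (edgeR adjusted p 0.000180) and above immune cells (5.16 and 5.04) by 2.88 (edgeR adjusted p 7.38e-05). They were below epithelial cells (72.5 and 51.5) by the fit, with a mesenchymal minus epithelial difference of -0.67 (edgeR adjusted p 0.0176). In CPM, however, they were lower in females (47.3 against 72.5) and higher in males (64.7 against 51.5).

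Igf2bp3 lay within a narrow range of lineages. The mesenchymal minus epithelial difference was 0.06 (edgeR adjusted p 0.675), and the mesenchymal minus endothelial difference was 0.37 (edgeR adjusted p 0.0294), a call lost with no filter on low counts (0.31, edgeR adjusted p 0.0835). Against immune cells the fit gave -0.64 (edgeR adjusted p 0.00218), while the CPM were 55.6 and 48.0 against 54.9 and 54.2. The call held in all 5 alternatives run (adjusted p 8.07e-06 to 0.00525).

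Hmga1 was lower in mesenchymal cells (5.95 and 11.8 CPM) than in immune cells (23.1 and 22), with a difference of -2.0 (edgeR adjusted p 0.000642), and than in epithelial cells (11.2 and 13.6), with -1.07 (edgeR adjusted p 0.0111). Against endothelial cells it did not pass (-0.09, edgeR adjusted p 0.788). Hmga2 was lower in mesenchymal cells (4.8 and 2.99 CPM) than in epithelial cells (47.2 and 29.6), with a difference of -3.74 (edgeR adjusted p 0.000746), and did not pass against endothelial cells (0.19, edgeR adjusted p 0.761). Against immune cells it did not pass (0.30, edgeR adjusted p 0.564), and with called doublets left out the same difference was 1.57 (edgeR adjusted p 0.0308). Lin28b was lower in mesenchymal than in immune cells, with a difference of -4.20 (edgeR adjusted p 0.0163), from 0 and 1 UMI against 28 and 30. Against endothelial cells it was -3.68 (edgeR adjusted p 0.0501), which passed in 3 of 5 alternatives (adjusted p 0.0188 to 0.0553 over the 5), and against epithelial cells 0.42 (edgeR adjusted p 0.873).

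Cells in division at day 1, defined by at least 2 of 12 listed G2/M genes, were compared with cells that had none, as a description. In immune cells Hmga1 was 1.67 times as high in cycling cells in females (1.44 to 1.94) and 1.53 times in males (1.32 to 1.77), and Igf2bp3 was 1.56 and 1.68 times as high. These ratios mix classes: in transient macrophages, with 299 of 535 and 409 of 662 of the cycling immune cells, Hmga1 was 0.961 (0.762 to 1.21) and 1.04 (0.808 to 1.33) times as high and Igf2bp3 1.30 and 1.49 times. Within classical monocytes 2 the Hmga1 ratio was 1.63 (1.05 to 2.5) and 2.06 (1.30 to 3.27). At day 21 in room air the ratio was 1.45 and 1.37 for Hmga1 and 1.02 and 0.966 for Igf2bp3 over immune cells, while within alveolar macrophages it was 1.44 (1.15 to 1.80) and 1.72 (1.33 to 2.22) for Igf2bp3. In female AT1 cells Hmga2 was lower in cycling cells, at 0.677 times (0.512 to 0.879). The male AT1 class had too few cycling cells to be compared. Over all epithelial cells Hmga2 was at 0.818 times (0.622 to 1.06) in females and 0.896 times (0.634 to 1.23) in males. It was higher in cycling cells of female endothelium, at 4.95 times (2.41 to 9.95) from 16 and 21 UMIs, and of male immune cells, at 1.94 times (1.15 to 3.29). Neither was seen in the other sex, with 1.04 (0.505 to 1.95) in male endothelium and 0.993 (0.556 to 1.70) in female immune cells. Cycling cells were deeper, with a median of 16746 UMIs against 8067 in female immune cells.

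The hyperoxia libraries were set against the room air libraries of the same age in 14 classes, with sex in the fit. Of 84 pairs of member and class, 24 had enough counts to be tested and 1 was called, against 2.28% of all pairs of gene and class. Igf2bp2 in alveolar macrophages was lower after hyperoxia, at 8.27 and 5.53 CPM in females and males against 14.6 and 14.4 in room air. The log2 change was -1.17 (SE 0.271, edgeR adjusted p 0.00333), and both hyperoxia libraries lay below both room air libraries. In that class 10.9% of all genes tested were called.

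The log2 change was -1.42 without the female hyperoxia library and -0.88 without the male one. The call was lost without the male one. Hyperoxia fits with 1 library left out had no sex term. Leaving out 1 hyperoxia library also left the other alone in its arm, so sex is mixed into those values. The call was also lost in DESeq2 (-1.16, adjusted p 0.371, the highest over all alternatives). The direction was the same in every alternative. Over all immune cells, which mix many classes, Igf2bp2 read 3.67 and 2.57 CPM in room air and 1.40 and 1.33 in hyperoxia.

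No other member passed in any class. An unadjusted edgeR p under 0.05 was found in 5 of the 24 pairs, the called one among them. That count was not set against all genes. Igf2bp3 in classical monocytes read 77.8 and 75.6 CPM in room air and 59.4 and 61.1 in hyperoxia, a log2 change of -0.33 (edgeR adjusted p 0.129). Igf2bp3 in the T Reg class read 35.1 and 33.5 against 22.1 and 22.5 (-0.61, edgeR adjusted p 1.000). Without the female hyperoxia library these changes were -0.30 and -0.60. Hmga1 in nonclassical monocytes read 14.9 and 13.4 CPM in room air against 10.6 and 10.7 in hyperoxia (-0.44, edgeR adjusted p 0.217). Igf2bp3 in neutrophils read 28.8 and 23.4 against 16.6 and 20.9 (-0.52, edgeR adjusted p 0.316). Without the female hyperoxia library the last 2 changes were -0.42 and -0.38. In these uncalled pairs the room air and hyperoxia libraries did not overlap, which also occurred in other uncalled pairs. Such splits were not counted over all genes, so they are not read as a result. Igf2bp2 in myofibroblasts read 1.57 and 6.45 CPM in room air and 7.08 and 34.4 in hyperoxia, and 1 cell held 48.1% of the 27 UMIs of the male hyperoxia value. That pair was not among the 24 tested. It had a log2 change of 2.89 without the female hyperoxia library, in a fit with no sex term that leaves that male value alone in its arm. The pair did not pass without the female room air library (1.65) or the male one (3.58). AT1 cells had too few cells in room air for the fit, and their ratio of hyperoxia to room air for Igf2bp2 was 1.5 in females (1.04 to 2.19) and 1.55 in males (0.859 to 3.02).

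**Figure D4:**
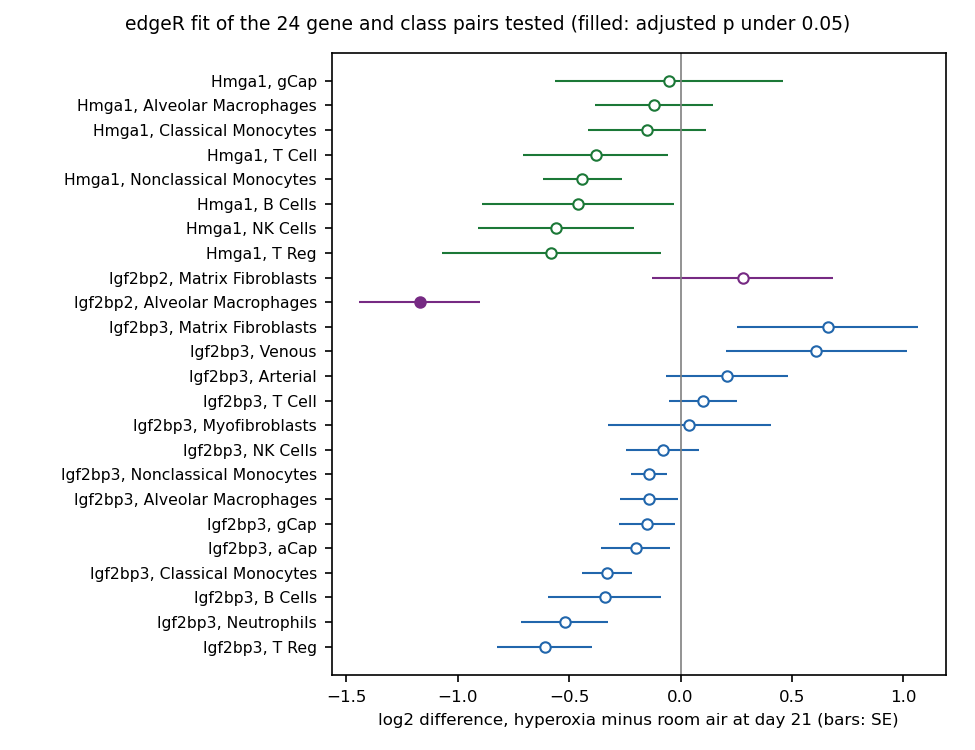
Log2 change of the 24 tested pairs of member and class in hyperoxia against room air at day 21, from the edgeR fit, with bars of 1 SE. Igf2bp2 in alveolar macrophages, at -1.17, is the pair that passed the adjusted threshold.

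Sex was compared over all 6 libraries in 10 classes, with condition in the fit. None of 36 tested pairs was called by edgeR or by DESeq2, 2 had an unadjusted p under 0.05 in edgeR, and 0.105% of all pairs of gene and class were called. Igf2bp1 in alveolar macrophages, myofibroblasts and arterial, venous and aCap cells had 0 UMIs in every day 21 library. Those pairs entered the fit through their day 1 libraries alone, so they say nothing of sex at day 21. With no covariate 17 pairs were tested and 0 called. Igf2bp2 in myofibroblasts had a female minus male log2 difference of -0.88 (edgeR adjusted p 0.908), and Hmga1 in arterial cells one of -0.93 (edgeR adjusted p 0.689). Without the day 1 female library the Igf2bp2 difference was -2.23 (edgeR adjusted p 0.00262) and without the day 1 male library it was -2.23 (edgeR adjusted p 0.00464). Either way the remaining day 1 library is alone in its condition, so both values rest on the same day 21 libraries. Those held 1 and 6 Igf2bp2 UMIs in female and 7 and 27 in male myofibroblasts. Without the female hyperoxia library the count of calls was 0.

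The pathways around the members were read from 6 gene lists in the same 10 classes, day 21 against day 1. Of 67 pairs of other HMG chromatin genes and class, 60 were called lower and 0 higher, or 34 lower and 5 higher with scaling on genes without introns. Hmgb3 and Hmgb2, which encode chromatin proteins abundant in dividing and fetal cells, were lower in 10 of 10 classes with median log2 changes of -2.31 and -1.71, and Hmgb3 in gCap cells went from 100 and 98.7 CPM to 21.1 and 25.5. Hmgn5, a nucleosome-binding protein gene, was lower in 10 with a median of -1.41.

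Of 141 pairs of cycling genes and class, 83 were called lower and 8 higher, or 48 and 18 with the other scaling. Cdk1, the kinase that drives entry into mitosis, and Mki67, a marker of dividing cells, were lower in 7 of 9 classes each (medians -3.38 and -2.02), and Ube2c, an enzyme of mitotic exit, was lower in 6 of 7 and higher in 1 (median -2.07). Of 120 pairs for the IGF2BP complex and other RNA-binding proteins, 60 were lower and 14 higher. Here the other scaling turned the balance to 5 lower and 46 higher. Pcbp1 and Ybx1, which encode RNA-binding proteins, were lower in 9 and 8 classes, and Stau1 was higher in 8.

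Of 192 pairs for LIN28 and microRNA processing, 64 were called higher and 22 lower, or 137 and 2 with the other scaling. Dis3l2, the nuclease that degrades uridylated let-7 precursors, was higher in 10 of 10 classes with a median log2 change of 2.32, and in gCap cells it went from 18.8 and 14.7 CPM to 106 and 84.2. It has 337387 intron bases. Ago3, an Argonaute gene, was higher in 10 (median 1.81) and Msi2, a Musashi RNA-binding protein gene, in 9 (median 1.65). Mir100hg and Mir99ahg, host transcripts of let-7 clusters named here after their values were seen, were higher in 6 of 6 classes each, with medians of 3.36 and 1.54 and 366020 and 522808 intron bases.

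Of 194 pairs for other let-7 targets, 72 were lower and 51 higher, or 33 and 83 with the other scaling. Arid3a, a transcription factor gene, was lower in 10 of 10 classes (median -2.21), from 30.1 and 28.3 CPM to 7.29 and 6.67 in gCap cells, and Thbs1, which encodes the matrix protein thrombospondin 1, was lower in 9 (median -3.11). Nr6a1, an embryonic nuclear receptor gene, went the other way in 10 of 10 classes (median 4.14), from 2.44 and 1.73 to 54.1 and 48.3 in gCap cells. In the IGF axis and IGF2BP client RNAs 60 of 126 pairs were lower and 38 higher, or 44 and 54 with the other scaling. Genes in the top quartile of intron length gave 37 of those 38 higher calls, 39 of the 51 among other let-7 targets and 50 of the 64 for LIN28 and microRNA processing. Genes in the lowest quartile with introns gave 24 of those 60 lower calls and 27 of the 72 among other let-7 targets. They gave 11 of 22 for LIN28 and microRNA processing and 47 of 60 for other HMG genes. For the RNA-binding proteins they gave 14 of 60, and for cycling genes 20 of 83. Sox4, which has no introns, was lower in 10 of 10 classes (median -1.60), while Btrc, an F-box gene, was higher in 10 (median 1.70).

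Against these lists, all pairs of gene and class had 54.3% called, 28.6% higher and 25.7% lower, with a median of 0.01. The other scaling moved that median to 0.68 and the share of calls that were higher from 52.7% to 86.3%. The lists' shares called ran from 44.8% for LIN28 and microRNA processing, with a median of 0.20, to 89.6% for the other HMG genes, with a median of -1.15. Over all genes in the lowest quartile with introns, 47.9% of pairs were called lower, with a median of -0.56. In the top quartile 63.6% were called higher.

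**Figure D5:**
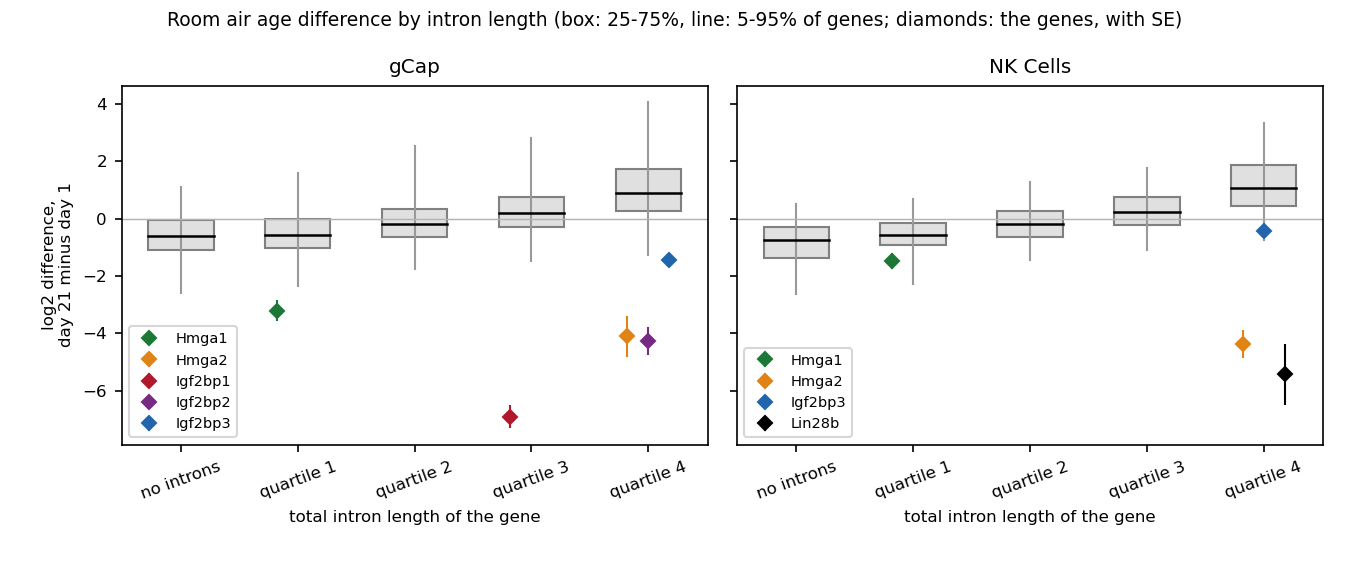
Log2 change from day 1 to day 21 in room air in gCap and NK cells for genes grouped by total intron length (none, then quartiles from shortest to longest; boxes, 25th to 75th percentile of genes; lines, 5th to 95th), with the members' fitted changes and SE as diamonds at their own group. Gene medians in gCap cells rise from -0.60 without introns to 0.89 in the top quartile. Every member drawn, Igf2bp1 at -6.90 among them, lies below the median of its group in both classes. The members were chosen for being lower at day 21, so this position supports nothing. The NK point of Hmga2 rests on cells mostly called doublets, without which its day 1 level is 2.35 and 2.27 CPM.

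Members were compared with each other over 112 sums of class and library, which share libraries and depth, so the correlations are descriptions. Igf2bp1 and Igf2bp2 had the highest Pearson correlation of log2 CPM, 0.74, followed by Igf2bp3 with Hmga1 at 0.65 and Igf2bp1 with Hmga2 at 0.64. Igf2bp1 and Igf2bp3 correlated at 0.20. The sums span both ages, by which the members were chosen. Over the 40 day 1 sums alone the first 3 correlations were 0.80, 0.68 and 0.41, Igf2bp2 with Hmga2 stood at 0.52 and Igf2bp1 with Igf2bp3 at -0.15. The genes most like the members' mean were Ubxn1 (0.85), Bag1 (0.80), Msln (0.80), Dlk1 (0.79), Cox4i1 (0.79) and Atp5f1 (0.78), followed by Tmem213, H3f3b, S100a14 and Ube2m. Over the day 1 sums alone the first 6 had 0.61, 0.71, 0.54, 0.46, 0.40 and 0.25. Dlk1, for one, averaged 389 CPM over the day 1 sums and 0.0866 over the day 21 sums, a difference between the ages that enters its likeness. For single members the nearest were S100a14 (0.88), Msln and Tmem213 for Igf2bp1, Fzd2 (0.85), Slc38a4 and F3 for Igf2bp2, and Llph (0.76), Clta and Pabpc1 for Igf2bp3. They were Mcpt4 (0.72), Tpsb2 and Hist1h2bm for Lin28b, Slc25a5 (0.89), Atp5e and Rps25 for Hmga1, and Cldn4 (0.72), Homer2 and Tuba8 for Hmga2. Over the day 1 sums the first of each had 0.66, 0.86, 0.76, 0.80, 0.82 and 0.71, in that order.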

How the data were processed

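The deposited matrices hold raw UMI counts per gene and cell, and the cell classes come from the authors' deposited annotation. The submitters' processing notes list Cell Ranger 6.0.0, Seurat 4.1.1 and mm10 for every sample, whereas, per the file headers, the day 21 matrices were written by another Cell Ranger version. Whether intronic reads were counted is not given in the sources used here. Counts were summed per class and library and divided by the group's total to give CPM, with exact Poisson or binomial intervals that cover counting error only. Each class was fitted on its own where all the libraries involved had 50 or more of its cells, with edgeR 4.0.16 (R 4.3.3, filterByExpr, TMM, quasi-likelihood test, Benjamini-Hochberg adjustment over all genes of a class, called under 0.05), after tests on simulated data. DESeq2 1.42.0, other scalings, no filter, called doublets left out and single libraries left out were alternatives. Doublets called with Scrublet (scanpy 1.11.5) were kept in the main values. Gene positions, introns and untranslated regions are from GENCODE M21 (GRCm38). The members and gene lists were chosen with earlier results of these data known. Named list genes are the 3 called in the most classes of each list, ties by the larger median change, and likeness genes are those with the highest Pearson correlation of log2(CPM + 1) among genes with a mean of at least 2 CPM. Exceptions are marked in the text, and 1 gene named by this rule is not reported here.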

Additional observations from a re-analysis of the deposited data

How the results depend on the processing

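The count of member and class pairs lower at day 21 was 40, and 36 with called doublets left out, 39 with scaling on genes without introns and 42 with TMM scaling, an alternative added after seeing the data. With at least 200 cells per library it was 16 of 20 pairs. Of the genes on the 6 lists, 512 pairs were called, with Myc, Igf1r and Insr, which are on 2 lists, counted once, in the age comparison, 346 in DESeq2 and 440 to 485 with 1 library left out. The 1 hyperoxia call of 24 pairs was lost in DESeq2 and without the male hyperoxia library. With no filter on low counts 2 of 68 pairs were called, against 6208 of 267610 pairs over all genes. The added call was Igf2bp2 in myofibroblasts (2.32, edgeR adjusted p 0.0141 with no filter). The sex count of 0 of 36 pairs was 1 of 58 with no filter, against 933 of 199692 pairs over all genes. It was 0 to 1 of 37 to 42 pairs with 1 library left out. With 1 library left out an arm can hold a single library, which is then assumed to vary like the others. In the age and hyperoxia comparisons those fits also had no sex term. The lineage count of 10 ran from 10 to 13. No called hyperoxia, sex or lineage difference of a member changed sign. In the age fit, scaling on genes without introns turned Igf2bp3 from -0.46 to 0.17 in alveolar macrophages, from -0.17 to 0.48 in B cells and from -0.44 to 0.28 in NK cells, and turned the balance of 3 lists. No paired analysis was possible because the labels give no replicate numbers by which single libraries could be paired. The main fits block on what the labels do give: sex in the age and hyperoxia fits and library in the lineage fit. Depth limits Lin28b, day 21 AT1 cells and every pair at 0 UMIs.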

Other observations

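Lin28a, the paralog of Lin28b, was named after its values were seen. It had 142 and 115 UMIs in the day 1 female and male libraries, against 43 and 43 for Lin28b, and stood at 20.9 and 20.0 CPM in the Ngp-positive neutrophil class of newborn lung. In the neutrophil class it read 6.10 and 6.82 CPM at day 1. At day 21 that class read 8.61 and 9.55 CPM in room air and 9.82 and 11.8 in hyperoxia.

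In the T Reg class of the male hyperoxia library Hmga2 had 41 UMIs in 4 of 312 cells, with 61.0% of them in 1 cell. The cause was not tested.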
